A study of Bos taurus with 138 samples.

Results

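The genes described are ZP2, ZP3 and ZP4, which encode glycoproteins of the zona pellucida, the extracellular coat of the oocyte. They were chosen by symbol, as the 3 rows of the deposited count table that carry these names, out of 16706 genes in all. In RefSeq they have the gene identifiers 280963 (ZP2, chromosome 25), 280964 (ZP3, chromosome 25) and 280965 (ZP4, chromosome 28). RNA was measured in Bos taurus oocytes before maturation, with an intact germinal vesicle (GV), in matured oocytes (MII, for metaphase II) and in 2-cell, 8-cell, morula and blastocyst embryos. Lysates were spun through sucrose gradients, in which RNA that carries more ribosomes travels further, and were then divided from top (F1) to bottom (F10). Each of the 6 stages has 2 gradients, A and B, with 10 fractions each, and 3 transcriptomes, A, B and C, of whole oocytes or embryos. Fractions were compared with transcriptomes of the same stage, and both were compared between stages. A fraction library and a transcriptome differ in more than ribosome loading, so a difference between them is not by itself a measure of that loading. GV oocytes came from the ovaries of slaughtered cattle and were taken from their cumulus cells, MII oocytes were matured in vitro, and embryos were made in vitro with semen of a Holstein bull. All groups were treated with cycloheximide, which holds ribosomes on mRNA, and all had the zona pellucida removed with protease before lysis. Each library was made from many pooled oocytes or embryos.

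The zona pellucida is built by the growing oocyte. Its subunits enter the endoplasmic reticulum, are glycosylated, travel to the oocyte surface and are cut free of their membrane anchor before they join the coat. ZP2 and ZP3 take part in the binding of sperm, and after fertilisation ZP2 is cleaved by ovastacin, a protease released from cortical granules, so that further sperm no longer bind. ZP4 is a further subunit of the coat in cattle. Zona genes are regarded as oocyte genes, and the coat itself surrounds the embryo until hatching.

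The values are expected counts, estimated by the authors with Salmon, of 1229382 to 17342859 per fraction library (median 10334106) and 3269386 to 11812567 per transcriptome. Levels are given as CPM, the counts scaled to library size, with TMM factors. Every fraction was amplified and sequenced as a library of its own, so a CPM is a share of the mRNA within that fraction and does not say how the RNA of a gene was spread over the gradient. No transcript lengths were used, so levels are compared between stages and libraries but not between genes. Of 10 oocyte markers listed for the check, 9 are in the table, and their summed level lay between 11928 and 21738 CPM in the transcriptomes of GV oocytes, MII oocytes and 2-cell embryos. In blastocyst transcriptomes the same sum was 465 to 1828 CPM, while 8 blastocyst markers summed to 6357 to 9274 CPM. Cumulus and granulosa markers (14 of 14 in the table) summed to 422 to 780 CPM in transcriptomes up to the 2-cell stage. In the 8-cell transcriptomes they summed to 1707 to 11099 CPM, but the listed markers did not rise together. From 2-cell to 8-cell transcriptomes the mean of LUM went from 0.788 to 3626 CPM and that of VCAN from 66.0 to 379 CPM. Their SDs in 8-cell embryos were 3892 and 437 CPM. STAR went from 255 to 45.9 CPM and HAS2 from 104 to 24.5 CPM. The part of these markers in the ZP results was not tested. In pooled material, fewer cells of a type and less RNA per cell cannot be told apart. The letters name separate samples. The paper states that the fractionation was done 2 times and speaks of biological replicates. It also states that the material for transcriptomes came from the batches used for the gradients. Which letters share a batch or a culture is not given, so the tests measure the spread between these samples.

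ZP2 was measured at 4969.9, 5947 and 4844 CPM in the 3 GV transcriptomes, at 8129, 7148 and 8132 CPM in MII oocytes and at 2456, 2227 and 1594 CPM in 2-cell embryos. The GV and MII libraries did not overlap, and the 2-cell libraries lay below both. From the 8-cell stage on ZP2 was low, at 39.4, 41.0 and 51.8 CPM in 8-cell embryos, at 7.93, 6.71 and 2.37 CPM in morulae and at 24.7, 6.84 and 6.40 CPM in blastocysts. The blastocyst transcriptome A stood above the other two, with 84 counts against 33 and 32.

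ZP3 was measured at 3199, 2210 and 2664 CPM in GV transcriptomes, at 1783, 1165 and 784 CPM in MII oocytes and at 309.9, 226 and 299 CPM in 2-cell embryos. These groups did not overlap, and the order was GV, MII, 2-cell. Later values were 10.6, 7.80 and 7.74 CPM in 8-cell embryos, 5.13, 2.95 and 3.45 CPM in morulae and 7.64, 5.80 and 5.60 CPM in blastocysts.

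ZP4 was measured at 6470.2, 5235 and 5782 CPM in GV transcriptomes, at 4798, 3399 and 3201 CPM in MII oocytes and at 1897, 1683 and 1907 CPM in 2-cell embryos, again without overlap. It stood at 33.3, 20.6 and 55.9 CPM in 8-cell embryos, at 1.96, 2.77 and 2.37 CPM in morulae and at 25.9, 5.18 and 5.40 CPM in blastocysts. Transcriptome A was again the highest of the blastocyst libraries. The 3 genes thus had the same order of mean levels from the 2-cell stage on (2-cell, 8-cell, blastocyst, morula), while ZP2 was highest in MII oocytes and ZP3 and ZP4 in GV oocytes. Neighbours in that order whose difference did not pass the test were MII and GV for ZP2, GV and MII as well as MII and 2-cell for ZP4, and blastocyst and morula for ZP2 and ZP3. The neighbours 8-cell and blastocyst, and for ZP2 also GV and 2-cell, were not compared by a test.

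**Figure D1:**
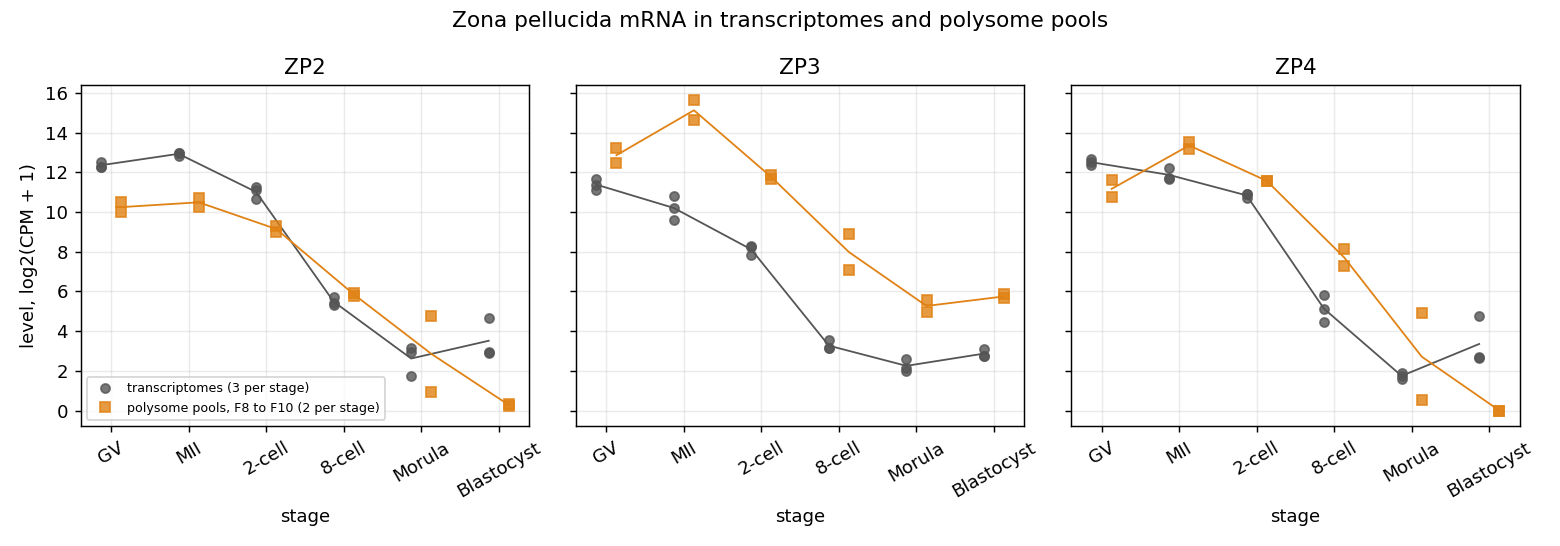
Level of each zona pellucida mRNA as log2(CPM + 1) (y axis) at 6 stages (x axis), with 1 point per library: circles are the 3 transcriptomes and squares the 2 polysome pools (F8 to F10) of a stage, and lines join the means of the log2 values. ZP3 polysome pools lie above the transcriptomes at every stage, ZP2 pools lie below them up to the 2-cell stage, and the 2 morula pools of ZP2 and ZP4 are far apart.

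Polysome-occupied mRNA was taken as the counts of F8, F9 and F10 summed within a gradient, which gives 2 polysome pools per stage. ZP3 was measured at 5711 and 9633 CPM in the GV pools and at 25278 and 50227 CPM in the MII pools. Both MII pools lay above both GV pools, while every MII transcriptome lay below every GV transcriptome. The rise was not limited to F8 to F10. In F3 to F5 ZP3 averaged 2703 and 1704 CPM in GV gradients A and B, and 11402 and 26636 CPM in MII. In F1 and F2 it averaged 8422 and 9081 CPM in GV gradients and 20160 and 33164 CPM in MII gradients. In the quasi-likelihood test of edgeR on 30 libraries, ZP3 rose 4.92-fold in polysome pools (log2 change 2.30 ± 0.47 SE, adjusted p = 0.00438) and fell 2.16-fold in transcriptomes (log2 change -1.11 ± 0.37, adjusted p = 0.0350). Of the 3 zona genes, ZP3 was the 1 called in each of these comparisons, against 5.37% of 14612 genes tested in polysome pools and 17.1% in transcriptomes. The difference between the polysome change and the transcriptome change was 3.41 ± 0.59 on the log2 scale (adjusted p = 0.000395). Such a difference was called for 1 of the 3 zona genes and for 10.6% of all genes. It stayed past the threshold without any 1 of the 10 libraries compared. The separate calls did not: the polysome rise was 1.97 (adjusted p = 0.0974) without GV pool A and 1.72 (adjusted p = 0.0584) without MII pool B, and the transcriptome fall lost its call without GV transcriptome A or C or MII transcriptome B or C, with log2 changes of -0.86 to -1.12 and adjusted p of 0.0740 to 0.183 in edgeR.

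ZP4 was measured at 1696 and 3096 CPM in the GV pools and at 11736 and 9289.9 CPM in the MII pools, so that the pools did not overlap. ZP4 also rose in F3 to F5, from means of 868 and 598 CPM in GV gradients to 8734 and 13482.5 CPM in MII. Its fitted rise in polysomes was 4.39-fold (log2 change 2.13 ± 0.87) but did not pass the test (adjusted p = 0.171), and neither did the difference from its transcriptome change (2.75 ± 1.10, adjusted p = 0.119). These tests share 1 estimate of each gene's spread over all stages, which includes the morula polysome pools, where ZP2 and ZP4 differ widely between gradients. In a fit of GV, MII and 2-cell libraries alone, chosen after the data were seen, the same polysome change of 2.13 had an SE of 0.27 and an adjusted p of 0.000132, and the difference from the transcriptome change was 2.82 ± 0.34 (adjusted p = 2.26e-05), where 31.0% of genes were called. In that fit 2 of the 3 zona genes rose in polysomes, against 8.49% of 13079 genes.

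ZP2 was measured at 1021 and 1437 CPM in the GV pools and at 1218 and 1687 CPM in the MII pools, which overlap. Its changes did not pass the test in polysome pools (0.24 ± 0.72, adjusted p = 0.957) or in transcriptomes (0.57 ± 0.59, adjusted p = 0.576) in edgeR. Over the step from GV to MII, the counts of ZP2 relative to ZP3 in polysome pools went from 0.179 and 0.149 to 0.0482 and 0.0336, while in transcriptomes they went from 1.55 to 2.69 in GV oocytes to 4.56 to 10.4 in MII oocytes. The ratio of these subunits thus moved in opposite directions in polysome pools and in transcriptomes, with no overlap between stages in either. The change of this ratio between stages was not tested, groups this small can separate by chance, and no share of gene pairs with such a pattern was counted.

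**Figure D2:**
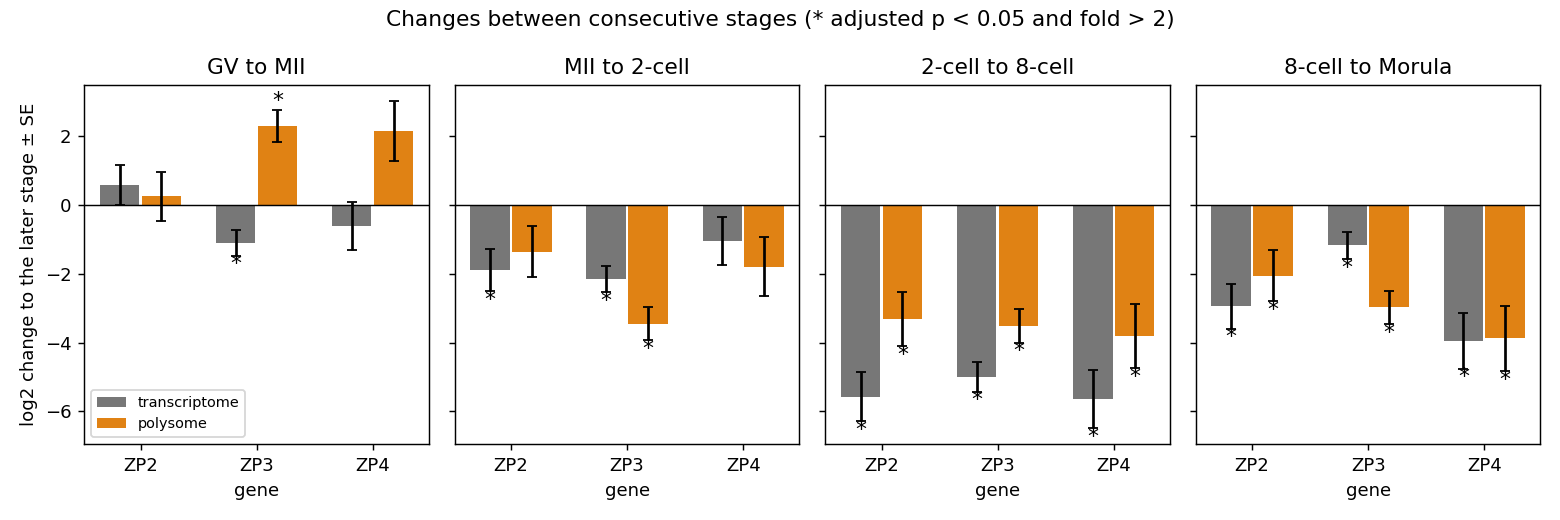
Fitted log2 change (y axis, bars with standard errors) of each zona gene in transcriptomes (grey) and in polysome pools (orange) at 4 transitions, from GV to MII on the left to 8-cell to morula on the right. A star marks adjusted p below 0.05 with a fold change above 2, and from GV to MII ZP3 has a star in both directions, up in polysome pools and down in transcriptomes.

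After fertilisation the zona mRNAs were lower in polysome pools and in transcriptomes. The ZP3 pools in 2-cell embryos held 3732 and 3182 CPM, both below both MII pools and both GV pools. ZP3 fell 10.9-fold in polysomes (log2 change -3.45 ± 0.49, adjusted p = 0.000130) and 4.47-fold in transcriptomes (-2.16 ± 0.38, adjusted p = 0.000355) in edgeR. The difference between these changes did not pass the test (-1.29 ± 0.58, adjusted p = 0.293), and 1.81% of genes did. ZP2 fell 3.73-fold in transcriptomes (adjusted p = 0.0394), a call that was lost when any 1 of the 6 transcriptomes was left out, with log2 changes of -1.74 to -2.03 and adjusted p of 0.0606 to 0.158. In transcriptomes 2 of the 3 zona genes were called lower, against 5.96% of genes, and in polysome pools 1 of 3, against 5.14%. ZP2 pools held 624 and 509 CPM (log2 change -1.36, adjusted p = 0.280) and ZP4 pools 3042 and 3026 CPM (log2 change -1.79, adjusted p = 0.215). In the fit of GV, MII and 2-cell libraries alone, all 3 genes fell in both kinds of library, with adjusted p between 1.47e-05 and 0.00178. In that fit 13.9% of genes fell in polysomes and 9.24% in transcriptomes. It leaves the transcriptome change of ZP4 near the limit of 2-fold (-1.01 on the log2 scale).

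Between the 2-cell and the 8-cell stage, the time of major embryonic genome activation in cattle, all 3 zona genes fell in transcriptomes and in polysome pools. ZP2 was measured at 54.4 and 59.3 CPM in the 8-cell pools, ZP3 at 471 and 133 CPM and ZP4 at 282 and 153 CPM, each far below the 2-cell pools. In transcriptomes the falls were 47.5-fold for ZP2, 31.9-fold for ZP3 and 49.9-fold for ZP4, with adjusted p between 2.14e-09 and 6.96e-06 in edgeR. In polysome pools the log2 changes were -3.32, -3.52 and -3.80, with adjusted p between 4.46e-06 and 0.00219. That of ZP3 was -4.70 without 8-cell pool A and -2.87 without pool B. The background was high, since 23.5% of genes fell in transcriptomes and 25.2% in polysome pools. For each zona gene the fitted fall was smaller in polysomes than in transcriptomes, by 2.25, 1.48 and 1.84 on the log2 scale, but none of these differences passed the test (adjusted p = 0.122, 0.0990 and 0.297), against 12.2% of genes called. Without the 8-cell polysome pool B, the pool in which ZP3 was lower, the difference for ZP3 was 2.12 (adjusted p = 0.00638). All 3 genes met the definition of maternal genes, with a transcriptome level more than 4-fold higher in GV and in MII oocytes than in each of 8-cell embryos, morulae and blastocysts, as did 6.79% of genes. The 6 fold changes ran from 119 to 1368 for ZP2, from 142 to 699 for ZP3 and from 104 to 2454 for ZP4.

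From the 8-cell stage to the morula the 3 genes fell again. In transcriptomes ZP2 fell 7.73-fold (adjusted p = 0.00296), ZP3 2.27-fold (adjusted p = 0.0446) and ZP4 15.4-fold (adjusted p = 0.00171) in edgeR, and 7.75% of all genes fell. The fall of ZP3 lost its call without any 1 of the 8-cell transcriptomes or without morula transcriptome B or C, with log2 changes of -1.01 to -1.26, and with no filter on low counts (-1.09, adjusted p = 0.0722). In polysome pools ZP3 fell 7.89-fold, to 46.2 and 30.4 CPM (adjusted p = 5.91e-05), and 17.7% of genes fell. The log2 change of ZP3 was -1.80 without 8-cell pool A and -3.62 without 8-cell pool B, and it kept its call. The difference between the changes of ZP3 was -1.80 ± 0.60 and sat at the threshold (adjusted p = 0.0499), where 12.5% of genes were called. It lost its call without any 1 of 8 of the 10 libraries, and was -0.62 (adjusted p = 0.550) without the 8-cell pool A and -2.44 without the 8-cell pool B. The morula pools of the other zona genes disagreed. ZP2 had 19 counts (0.916 CPM) in pool A and 914 counts (26.3 CPM) in pool B, and ZP4 had 9 counts (0.434 CPM) in pool A and 1004 counts (28.9 CPM) in pool B. ZP3 had 959 and 1057 counts in the same pools, so the gap between gradients was not shared by all zona genes. The falls of ZP2 (4.15-fold, adjusted p = 0.0351) and ZP4 (14.7-fold, adjusted p = 0.00290) in polysome pools therefore rest on 2 unlike values, and that of ZP2 lost its call without 8-cell pool A or B or morula pool A, with log2 changes of -1.11 to -2.11, and with a polysome pool of F9 and F10 (-1.45, adjusted p = 0.246). Without morula pool B the log2 change was -5.95 for ZP2 and -8.95 for ZP4, and without morula pool A that of ZP4 was -2.91. Over F1 to F10, the 9 oocyte markers summed to 112 to 485 CPM (median 193) in morula gradient A and to 295 to 3355 CPM (median 713) in gradient B, and 3 of the 9 were at 0 in polysome pool A against none in pool B. The part of these markers in the difference between gradients was not tested.

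In blastocysts ZP3 was still counted in both polysome pools, at 49.0 CPM (1125 counts) and 56.8 CPM (1334 counts), and its changes from the morula did not pass the test in polysome pools (0.47 ± 0.45, adjusted p = 0.566) or in transcriptomes (0.71 ± 0.42, adjusted p = 0.233). ZP2 had 4 and 6 counts in the 2 pools. ZP4 had 0 and 0 counts, which allows a level of up to 0.131 CPM (3 counts) and makes it at least 112-fold lower than the mean of the morula pools, or at least 3.32-fold lower than the lower of them. Against the mean of the blastocyst transcriptomes it was at least 93.1-fold lower, a mean raised by transcriptome A, and against the lowest of them at least 39.7-fold lower. ZP2 and ZP4 were called lower than in morula pools (adjusted p = 0.000506 and 0.000415), 2 of 3 zona genes against 8.13% of all genes. The fitted log2 change of ZP2 was -5.95, and it was -2.05 (adjusted p = 0.0568) without morula pool B and -6.87 without morula pool A. In transcriptomes ZP4 was called higher in blastocysts than in morulae (log2 change 2.32 ± 0.80, adjusted p = 0.0376, 10.2% of genes called higher), at 88, 25 and 27 counts against 21, 31 and 22. Without blastocyst transcriptome A the log2 change was 1.16 (adjusted p = 0.356), and without any 1 of the morula transcriptomes adjusted p was 0.0817 to 0.111. The difference between polysome and transcriptome changes was called for ZP2 (-7.07 ± 1.18) and ZP4, for 12.3% of all genes, and rests on these low counts. For ZP2 it was -3.18 without morula pool B, -8.00 without morula pool A and -6.15 without blastocyst transcriptome A.

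Set against the transcriptome of the same stage, the 3 genes parted. ZP3 was higher in polysome pools than in transcriptomes at all 6 stages. The difference was smallest in GV oocytes (2.85-fold, adjusted p = 0.00407), where it was 1.09 on the log2 scale (adjusted p = 0.0986) without pool B. It was 30.3-fold in MII oocytes (adjusted p = 1.53e-09), 12.4-fold in 2-cell embryos, 34.6-fold in 8-cell embryos, 9.94-fold in morulae and 8.37-fold in blastocysts, where adjusted p was at most 5.87e-06 in edgeR. In 8-cell embryos the log2 difference was 3.93 without pool A and 5.75 without pool B, around 5.11 with both. These shares stand against 22.2%, 30.8%, 29.1%, 28.0%, 26.5% and 20% of all genes called higher in polysomes at the 6 stages in order.

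ZP2 was lower in polysome pools than in transcriptomes in GV oocytes (4.27-fold), MII oocytes (5.37-fold) and 2-cell embryos (3.69-fold), with adjusted p of 0.0220, 0.00652 and 0.0293 in edgeR. At these stages 17.7%, 26.7% and 21.9% of genes were lower. Both pools lay below all 3 transcriptomes each time. Leaving out libraries ended these calls: in GV oocytes and 2-cell embryos they were lost without either pool (adjusted p of 0.0783 to 0.146), in 2-cell embryos also without transcriptome A or B, and in MII oocytes without pool A (-2.26, adjusted p = 0.0630). In the fit of GV, MII and 2-cell libraries alone the log2 differences were -2.15, -2.40 and -2.04, with adjusted p of at most 1.54e-06, and 30.4%, 35.4% and 33.5% of genes were lower. At the 8-cell stage the difference of ZP2 did not pass the test (0.37 ± 0.66, adjusted p = 0.647).

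ZP4 changed sides. Its GV pools, at 1696 and 3096 CPM, lay below all GV transcriptomes, and its MII pools, at 11736 and 9289.9 CPM, lay above all MII transcriptomes. Neither difference passed the test over all stages (-1.28 ± 0.80, adjusted p = 0.208, and 1.47 ± 0.75, adjusted p = 0.0988). Both were called in the fit of GV, MII and 2-cell libraries alone (-1.34 ± 0.25, adjusted p = 0.000168, and 1.48 ± 0.23, adjusted p = 2.07e-05). In that fit 30.4% of genes were lower in GV polysomes and 39.8% higher in MII polysomes. In 8-cell embryos ZP4 was 5.93-fold higher in polysome pools (adjusted p = 0.00688), and 2.06 on the log2 scale (adjusted p = 0.0564) without pool A. In morulae the call followed the gradient kept: the log2 difference was 2.63 (adjusted p = 0.0104) with both pools, 3.58 without pool A and -2.43 (adjusted p = 0.0210) without pool B. ZP2 in morulae behaved alike, at 2.18 (adjusted p = 0.000946) without pool A and -2.63 (adjusted p = 0.00291) without pool B, and was not called with both.

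The gap between ZP3 and ZP2 was not limited to the polysome fractions. In MII oocytes, 2-cell embryos and 8-cell embryos all 20 fraction libraries held more ZP3 than any of the 3 transcriptomes, a pattern shared by 11.6%, 8.45% and 4.61% of genes. In GV oocytes 14 of 20 did. For ZP2 all 20 fraction libraries lay below all 3 transcriptomes in GV oocytes, MII oocytes and 2-cell embryos, as for 20.5%, 21.5% and 18.8% of genes. ZP4 lay below in all 20 GV fractions and above in 19 of 20 MII fractions and 18 of 20 fractions of 2-cell embryos. Shares of all genes were counted only for all 20 libraries, so the counts of 14, 19 and 18 have no share beside them. The free RNA fractions F1 and F2 are among the 20 libraries of each stage. Where all 20 differ from the transcriptomes, the difference is thus not limited to ribosome-bound fractions.

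From F3 to F10 of the GV gradients, ZP3 and ZP4 rose towards the polysomes. ZP3 in GV gradient A rose from 2039 CPM in F4 to 6252 CPM in F9, and in gradient B from 1246 CPM in F4 to 12176 CPM in F10. ZP4 rose from 663 CPM in F5 to 1845 CPM in F10 in gradient A and from 440.3 CPM in F4 to 3825 CPM in F9 in gradient B. Spearman's rho of log2(CPM + 1) with the fraction number over the 16 libraries of F3 to F10 was 0.88 for ZP3 (adjusted p = 0.000221) and 0.83 for ZP4 (adjusted p = 0.000751) by a permutation test. The permutations treated the 16 libraries as exchangeable. They are neighbouring fractions of 2 gradients, so this p does not measure the spread between gradients. ZP2 had its highest value in F10 of both gradients, at 1183 and 1914 CPM, with rho 0.55 (adjusted p = 0.0725). In GV oocytes 2 of 3 zona genes rose along the gradient, against 16.6% of 11618 genes. Both calls were lost without gradient B, when 8 libraries remained, with rho 0.81 and 0.74. Nearer the top, F2 held 12324 CPM of ZP3 in gradient A, above each of F3 to F10, and 10330 CPM in gradient B. Over F1 to F10 rho was 0.23 for ZP3 (adjusted p = 0.477) and 0.48 for ZP4 (adjusted p = 0.0903), and both calls were lost.

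In MII oocytes ZP2 fell from F3 to F10. It was highest in F3 of both gradients, at 3919.6 and 4524 CPM, and lowest in F8, at 799 and 1066 CPM, among F3 to F10. Its rho was -0.75 (adjusted p = 0.0116, permutation test), 1 of 3 zona genes against 11.8% of genes that fell along the gradient. ZP3 ranged from 7101 CPM in F4 to 30244 CPM in F7 in gradient A and from 20617 CPM in F4 to 86616 CPM in F10 in gradient B. Its rho was 0.50 (adjusted p = 0.160), and with ranks taken within each gradient, as a replicate block, 0.76 (adjusted p = 0.0170). ZP4 showed rho -0.21 (adjusted p = 0.617). The rho of ZP2 was -0.62 without gradient A and -0.88 without gradient B, neither of which passed the test with 8 libraries. F1 held 744 and 988 CPM of ZP2, and over F1 to F10 rho was -0.21 (adjusted p = 0.601).

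In 2-cell embryos ZP3 rose from F3 to F10 (rho 0.80, adjusted p = 0.00893, permutation test), from 1422 CPM in F3 to 3749 CPM in F10 in gradient A and from 1269 to 3159 CPM in gradient B. The highest value in gradient A was 8434 CPM in F6, out of step with gradient B. This was 1 of 3 zona genes, against 9.8% of genes that rose, and rho was 0.76 (adjusted p = 0.347) without gradient B and 0.35 (adjusted p = 0.346) over F1 to F10. ZP2 leaned to the light fractions with rho -0.63 (adjusted p = 0.0539), and -0.79 (adjusted p = 0.0140) with the gradients as blocks. ZP4 had rho -0.36 (adjusted p = 0.351). In 8-cell embryos ZP4 fell along the gradient (rho -0.85, adjusted p = 0.00284), 1 of 3 zona genes against 10.8% of genes. It went from 818 CPM in F3 to 148 CPM in F8 in gradient A and from 1041 CPM in F3 to 54.0 CPM in F10 in gradient B. Its call was lost without either gradient, with rho -0.95 and -0.71. In morulae ZP3 (rho -0.70, adjusted p = 0.104) and ZP4 (rho -0.69, adjusted p = 0.117) and in blastocysts ZP2 (rho -0.52, adjusted p = 0.207) came closest to a trend in the permutation test, and no zona gene passed it at these stages, where 1.57% and 7.61% of genes did. ZP2 was below 10 counts in 7 of 20 morula and 15 of 20 blastocyst fractions, and ZP4 in 4 and 18.

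**Figure D3:**
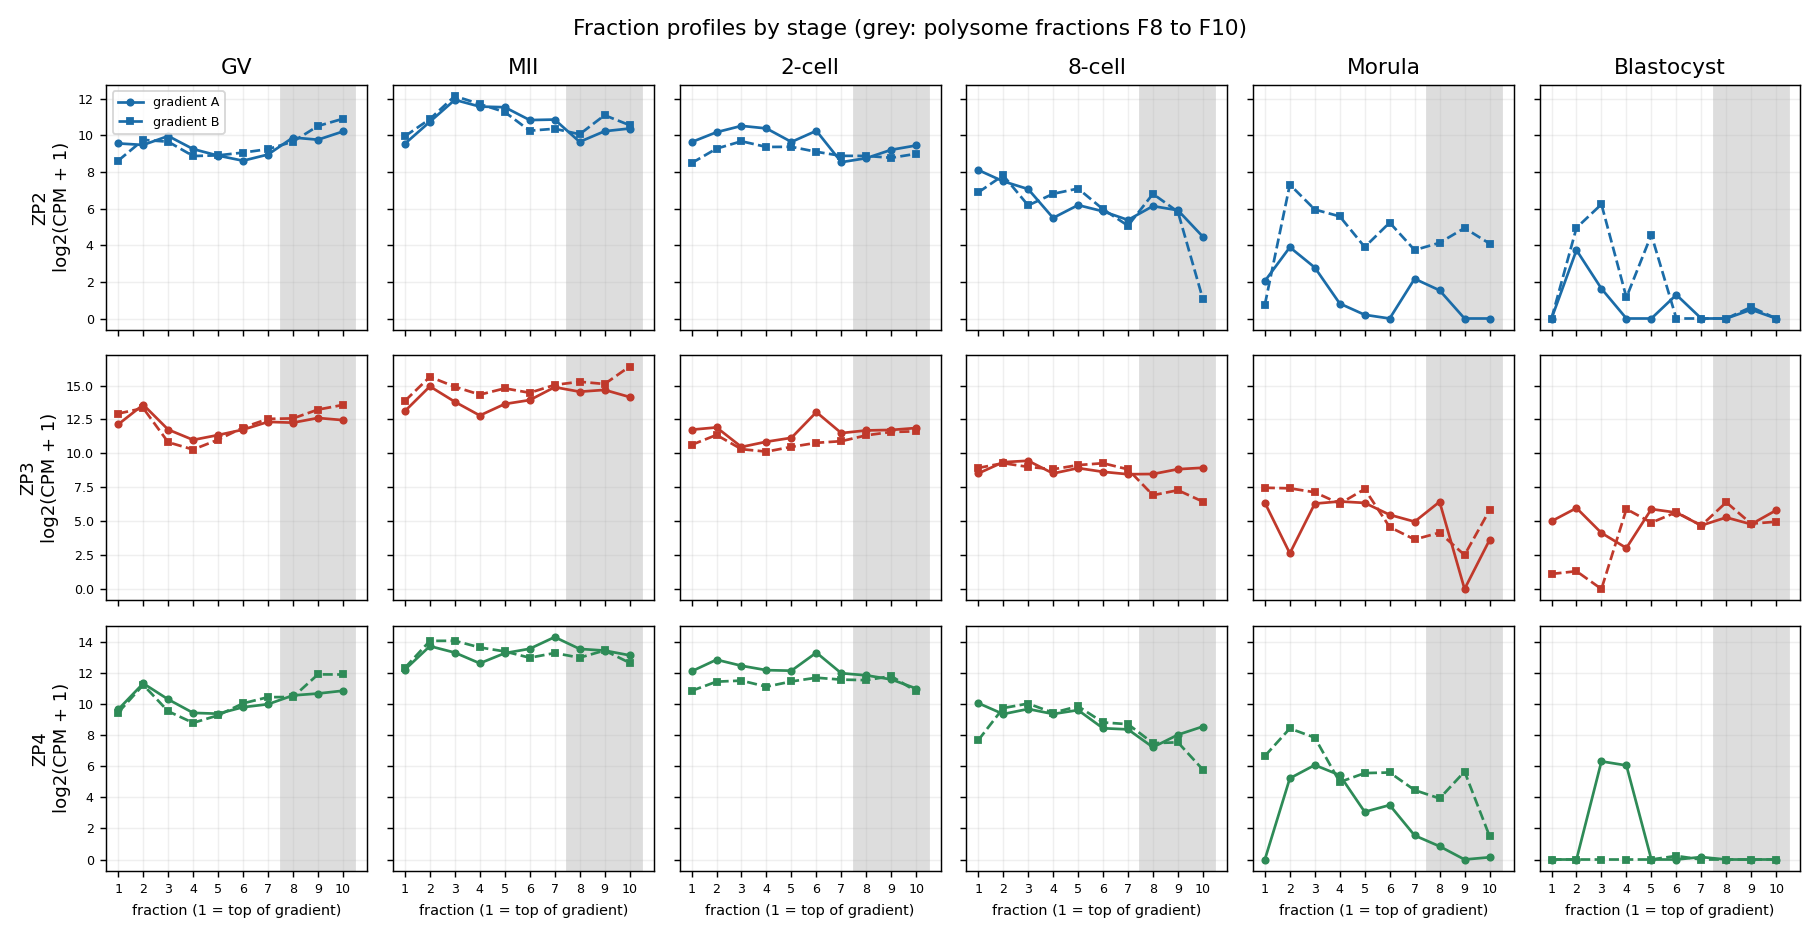
Level as log2(CPM + 1) (y axis) along fractions F1 to F10 (x axis, 1 is the top of the gradient) for ZP2, ZP3 and ZP4 (rows) at 6 stages (columns), with gradient A as circles on a solid line and gradient B as squares on a dashed line, and the polysome fractions F8 to F10 in grey. In GV oocytes ZP2 falls from F3 to F6 in gradient A and from F3 to F4 in gradient B before its highest value in F10. In MII oocytes it peaks in F3, and the 2 morula gradients of ZP2 and ZP4 lie apart over most fractions.

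Polysome fractions (F8 to F10) were also set against monosome fractions (F3 to F5) within each gradient, with the counts summed. ZP3 counts in GV monosome pools were 98727 and 74500 and in GV polysome pools 226409 and 356464, a log2 difference of 1.76 ± 0.77 after scaling. ZP4 gave 1.64 ± 0.73 and ZP2 0.91 ± 0.78 in GV oocytes. In MII oocytes ZP2 gave -1.31 ± 0.78 and ZP3 0.94 ± 0.74. None of these passed the test in the fit over all stages (adjusted p from 0.569 to 1 in edgeR), in which 0.992% of 15119 genes were called in GV oocytes and 0.595% in MII oocytes. At an unadjusted p under 0.05 there were 2 zona genes in GV oocytes and none in MII oocytes. The share of all genes at that rule was not counted, and the percentages above are for adjusted p. In the fit of GV, MII and 2-cell oocytes and embryos alone, ZP3 and ZP4 were higher in polysomes than in monosomes in GV oocytes (adjusted p = 0.00489 and 0.0163, 2.98% of genes) and ZP2 was lower in MII oocytes (-1.27 ± 0.29, adjusted p = 0.0146, 3.88% of genes). In the same fit, the heavy-to-light balance of ZP2 fell by 2.17 ± 0.41 on the log2 scale from GV to MII (adjusted p = 0.00946, 1.48% of genes). For ZP3 the change was -0.77 (adjusted p = 0.421) and for ZP4 -1.77 (adjusted p = 0.0765). In the fit over all stages the change of ZP2 was -2.22 ± 1.10 (adjusted p = 1, 0.112% of genes called).

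At later stages ZP4 was lower in polysomes than in monosomes of morulae (-3.95 ± 0.85, adjusted p = 0.0153 in edgeR, 1.28% of genes), with -2.03 (adjusted p = 0.361) without gradient A, -6.90 without gradient B and -2.54 (adjusted p = 0.340) with no block for the gradient. ZP2 and ZP4 were called lower in polysomes of blastocysts, 2 of 3 against 0.807% of genes. The ZP4 counts there were 620 and 0 in the monosome pools and 0 and 0 in the polysome pools, so the call rests on gradient A. Those of ZP2 were 9 and 516 in the monosome pools and 4 and 6 in the polysome pools, and its difference was -6.07 with both gradients, -7.41 without gradient A and -2.18 (adjusted p = 0.244) without gradient B. ZP4 was also called lower in free RNA than in monosomes of blastocysts, from the same 620 counts (1.38% of genes lower). In the fit of the earlier stages alone ZP3 was higher in free RNA than in monosomes in GV oocytes (1.77 ± 0.33, adjusted p = 0.00255, 5.49% of genes higher) and ZP2 lower in MII oocytes (-1.39 ± 0.29, adjusted p = 0.00575, 4.27% of genes lower).

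The ratio of 2 zona mRNAs within a library does not depend on how that library was scaled, and was followed along F3 to F10 at 5 stages, 15 tests in all. As for the trends, the permutations took neighbouring fractions of 2 gradients as separate libraries. In blastocysts too few counts were left. The log2 ratio of ZP2 to ZP3 in MII oocytes lay between -5.85 and -1.22 and fell with the fraction number (rho -0.78, adjusted p = 0.00415, permutation test). In 2-cell embryos it lay between -2.97 and 0.04 and fell alike (rho -0.77, adjusted p = 0.00415). The ratio of ZP2 to ZP4 fell in GV (rho -0.66) and MII oocytes (rho -0.66), both with adjusted p of 0.0183. The ratio of ZP3 to ZP4 rose in MII oocytes (rho 0.63, adjusted p = 0.0243), in 2-cell embryos (rho 0.96, adjusted p = 0.000150) and in 8-cell embryos (rho 0.69, adjusted p = 0.0146). In GV oocytes it did not pass the test (rho 0.28, adjusted p = 0.423). Within F3 to F10 of MII oocytes and 2-cell embryos, ZP3 thus tended to rise relative to both other subunits towards the heavier fractions. This was a trend of ranks and not a rise at every step. In 1 gradient alone, with 8 libraries, the ratio of ZP3 to ZP4 in 2-cell embryos kept its call (rho 0.98 in each). The calls for ZP2 to ZP4 in GV oocytes (rho -0.52), for ZP2 to ZP3 (rho -0.81) and ZP3 to ZP4 (rho 0.83) in MII oocytes and for ZP2 to ZP3 in 2-cell embryos (rho -0.60) were lost without gradient B. Those for ZP2 to ZP4 in MII oocytes (rho -0.50 and -0.76) and ZP3 to ZP4 in 8-cell embryos (rho 0.76 and 0.81) were lost without either gradient. With F1 and F2 included, 7 of these 7 calls were lost.

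**Figure D4:**
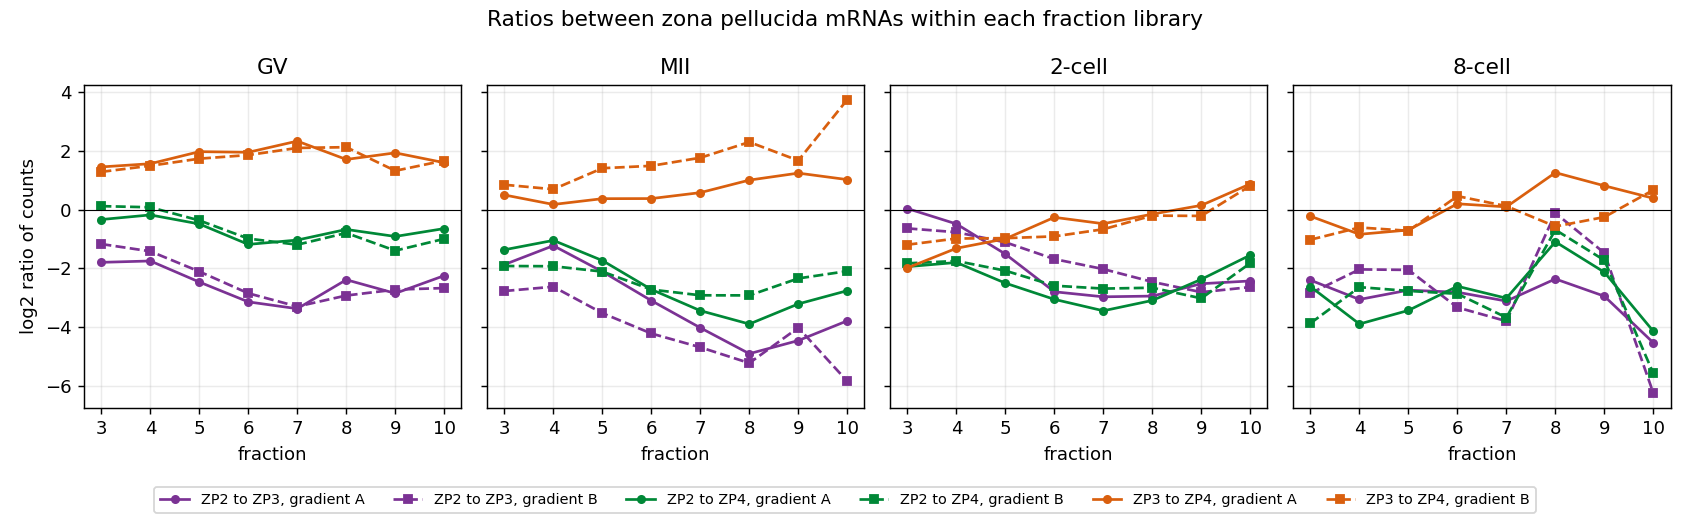
Log2 ratio of the counts of 2 zona genes in the same library (y axis) along fractions F3 to F10 (x axis) in GV and MII oocytes and in 2-cell and 8-cell embryos, with gradient A as circles on solid lines and gradient B as squares on dashed lines. In 2-cell embryos the ratio of ZP3 to ZP4 (orange) spans -1.98 to 0.88 and climbs, and the ratio of ZP2 to ZP3 (purple) falls in both gradients.

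Gene lists around the zona were followed over the step from GV to MII. Of 33 genes of the secretory route of glycoproteins, 7 rose in polysome pools, against 3.03% of all genes, with a median log2 change of 0.30 beside 0 over all genes, and 4 rose and 2 fell in transcriptomes, where 6.61% and 10.5% of all genes did. Those named for their level were DAD1, a subunit of the oligosaccharyltransferase, and SRP14 of the signal recognition particle, which rose in polysomes (log2 changes 1.24 and 1.14, adjusted p = 0.0185 and 0.0387 in edgeR), and the chaperones HSP90B1 (-0.20, adjusted p = 0.931) and CANX (0.69, adjusted p = 0.235). CALR, a calcium-binding chaperone that is also in the cortical granule list, rose by 1.75 (adjusted p = 0.0168) and was the 1 gene of 15 tested in that list to do so. Of 12 genes of zona processing and gamete recognition 3 rose, among them CD9, a membrane protein needed for gamete fusion (1.52, adjusted p = 0.0242), and MFGE8, a secreted glycoprotein (2.71, adjusted p = 0.00791). Both also rose in transcriptomes (1.54 and 1.72), unlike ZP3. Of 11 oocyte-secreted and oocyte membrane genes CD9 was the 1 that rose, and the growth factors GDF9 (-0.15, adjusted p = 1) and BMP15 (0.40, adjusted p = 0.916) were not called.

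Of the 8 regulators of zona and oocyte genes, 5 are in the table. FIGLA, a transcription factor that activates zona genes, fell by 2.55 ± 0.66 on the log2 scale in transcriptomes from GV to MII (adjusted p = 0.00775 in edgeR), with 232 ± 26.1 CPM in GV and 39.6 ± 27.5 CPM in MII oocytes (SD, n = 3). Its polysome pools held 223 and 336 CPM in GV and 271 and 741 CPM in MII oocytes, and overlapped (0.86 ± 0.76, adjusted p = 0.643). In polysome pools of MII oocytes FIGLA was higher than in transcriptomes (3.67 ± 0.72, adjusted p = 0.000164). The regulators LHX8 (-0.46, adjusted p = 0.843), TBPL2 (-1.06, adjusted p = 0.690) and TAF4B (-0.14, adjusted p = 1) gave these polysome changes. FIGLA was not alone in a lower transcriptome level in MII oocytes. From GV to MII, LHX8 went from 137 ± 35.7 to 87.9 ± 11.2 CPM and TBPL2 from 125 ± 22.9 to 40.2 ± 3.68 CPM. TAF4B went the other way, from 1.58 ± 0.56 to 2.52 ± 1.28 CPM (SD, n = 3). Along the gradient GDF9 had rho 0.91 in GV oocytes (adjusted p = 0.000221) and -0.74 in MII oocytes (adjusted p = 0.0156, permutation test), beside 0.55 and -0.75 for ZP2. The other named genes of its list did not show this pair of values, with rho 0.86 and 0.15 for BMP15, 0.13 and 0.92 for OOSP2, and -0.18 and -0.05 for CD9.

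Between the 2-cell and the 8-cell stage 8 of 11 oocyte-secreted and oocyte membrane genes fell in transcriptomes and 8 in polysome pools, with median log2 changes of -3.84 and -3.12, beside 23.5% and 25.2% of all genes and medians of 0.03 and -0.26 over all genes. Of the secretory route 21 of 33 rose in transcriptomes and none fell, and 14 rose and 2 fell in polysome pools, where 26.6% and 21.0% of all genes rose.

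The genes most like each zona gene over the 18 transcriptomes were found by Pearson's r of log2(CPM + 1), as a description. The 18 libraries are 3 from each of 6 stages. For ZP2 they were EEPD1, PAIP1, ZP4, FRZB and CMYA5 (r of 0.992 to 0.991), for ZP3 CPA1, LRMDA, LEAP2, CNTD2 and CDK15 (r of 0.992 to 0.987) and for ZP4 NUDT2, ZP2, LMO3, INPP1 and GDF9 (r of 0.992 to 0.989). ZP2 and ZP4 were thus among the nearest genes of each other, at r = 0.991, while ZP3 ranked 209 in likeness to ZP2 (r = 0.970) and 125 to ZP4 (r = 0.973). In likeness to ZP3, ZP4 ranked 46 and ZP2 ranked 56. Over the 120 fraction libraries, looked at after the data were seen, the nearest genes were PHACTR3, INPP1 and ASTL, which encodes ovastacin, for ZP2 (r of 0.937 to 0.933), FIGLA, PRSS2 and ZGLP1 for ZP3 (r of 0.915 to 0.912) and PRSS2, ASTL and IZUMO1R, the sperm receptor of the oocyte membrane, for ZP4 (r of 0.945 to 0.937). There ZP4 ranked 13 and ZP3 126 in likeness to ZP2. In likeness to ZP4, ZP2 ranked 22 and ZP3 62, and in likeness to ZP3, ZP4 ranked 18 and ZP2 53.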

How the data were processed

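The 10 fractions of 2 sucrose gradients and 3 transcriptomes per stage were sequenced from Smart-seq libraries. The authors estimated transcript abundance with Salmon (version not given in the sources used here) and deposited expected counts per gene symbol, not normalised. The paper's methods and the submitters' processing notes name different bovine builds, and no coordinate is given here. Of the values, 11.7% were not whole, and counts were rounded for the tests. Because Smart-seq amplifies each library separately without molecular identifiers, counting intervals and floors cover counting error only.

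The members and gene lists were chosen with earlier results of these data known. RefSeq names matched 3 of 3 members. Polysome pools (F8 to F10) and transcriptomes (30 libraries, 14612 genes after filterByExpr) were fitted with the quasi-likelihood test of edgeR 4.0.16 in R 4.3.3, with TMM factors and Benjamini-Hochberg adjustment over all genes. Calls needed adjusted p below 0.05 and, between stages, a fold change above 2. Pools of free RNA, monosome, intermediate and polysome fractions (48 pools, 15119 genes) were fitted with the gradient as a block. Trends over F3 to F10 were Spearman's rho of log2(CPM + 1) for genes with a mean of at least 1 CPM, tested two-sided with 100000 permutations, of which the smallest p is 1e-05. Ratios of counts had 0.5 added to both. Fraction labels were permuted over both gradients without a block, except in the alternative with a replicate block. The p-values of trends and ratios therefore do not measure the spread between gradients, of which there were 2 per stage. A fit of GV, MII and 2-cell libraries alone and the change of the polysome to monosome balance between stages were added after seeing the data.

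Replicate letters did not pair the samples of the first model: over 147 pairs of same-letter libraries the median correlation of deviations was 0.000412, and 7 pairs exceeded 0.1. Alternatives were the likelihood ratio test, DESeq2 1.42.0, RLE factors, no filter on low counts, a replicate block, a polysome pool of F9 and F10, other pseudocounts, CPM without TMM factors, F1 to F10, and leaving out each library. For trends, ratios and pools compared within gradients, a whole gradient of a stage was left out in place of a library. Fits without a library or gradient kept the genes and the trended dispersion of the full data. The fits and the trend test were tested on simulated data, with the same spread for all genes and independent libraries. That check does not cover pools that differ widely between gradients, or fractions that resemble their neighbours. Genes named from the lists were the 4 of highest mean log2 level in transcriptomes within each list.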

Additional observations from a re-analysis of the deposited data

Results flagged for a closer look

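The polysome change and the transcriptome change of a gene were compared by a test of the difference itself, and 4 results passed it. ZP3 differed by 3.41 on the log2 scale from GV to MII, higher in both MII polysome pools and lower in all 3 MII transcriptomes. Its level also rose in the free RNA and monosome fractions. ZP3 differed by -1.80 from the 8-cell stage to the morula, at adjusted p = 0.0499 in edgeR. From the morula to the blastocyst ZP2 differed by -7.07 and ZP4 by -13.38, fitted values that rest on 4 and 6 counts of ZP2 and 0 and 0 counts of ZP4 in the blastocyst polysome pools and are no measure of size.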

How the results depend on the processing

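Of 1192 recomputed values for the zona genes, 1066 kept direction and side of the threshold, 82 lost a call, 21 gained one and 23 changed sign; the cause was not tested. DESeq2 changed none of its 90. The calls for ZP3 against transcriptomes after the GV stage, and all calls from the 2-cell to the 8-cell stage within transcriptomes and within polysome pools, kept their side under every alternative run.

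Among zona genes called, RLE factors gave 0 in transcriptomes from GV to MII. RLE factors, no filter and the replicate block each gave 0 for the difference of changes from 8-cell to morula, where the block left ZP3 at -1.73 (adjusted p = 0.0600). The replicate block also gave 0 in transcriptomes from morula to blastocyst (ZP4 2.29, adjusted p = 0.0576) and 2 trends each in MII oocytes and 2-cell embryos, and it changed no other call. No filter gave 1 in transcriptomes from MII to 2-cell and ended the call of ZP3 in transcriptomes from 8-cell to morula (-1.09). The polysome pool of F9 and F10 gave 1 against transcriptomes in GV oocytes and 1 in 2-cell embryos and ended the call of ZP2 in polysomes from 8-cell to morula (-1.45). CPM without TMM factors added a trend of ZP2 in GV oocytes (rho 0.60, adjusted p = 0.0446). For polysomes against monosomes, the likelihood ratio test gave 1 in 8-cell embryos and no replicate block gave 0 in morulae. F1 to F10 gave 0 trends in GV oocytes, MII oocytes and 2-cell embryos and 2 in 8-cell embryos. GV, MII and 2-cell libraries alone gave 2 and 1 for polysomes against monosomes in GV and MII oocytes, 1 each for free RNA against monosomes, 1 for the GV to MII change of that polysome balance, 2 each for the polysome change and the difference of changes from GV to MII, and 3 for polysomes from MII to 2-cell.

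Signs changed for values that were not called: free RNA against monosomes for ZP2 in GV oocytes (-0.067 with no filter, -0.054 with the 3 early stages alone), the difference of changes of ZP4 from 8-cell to morula (-0.046 with no filter), with the F9 and F10 pool that of ZP3 from morula to blastocyst (0.31) and ZP2 against transcriptomes in 8-cell embryos (-0.23), and with F1 to F10 the rho of the ratios ZP2 to ZP3 (0.045) and ZP3 to ZP4 (-0.30) in GV oocytes and ZP2 to ZP4 (-0.24) in 8-cell embryos.

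Leaving out 1 library gave counts of 0 to 1 in transcriptomes and polysomes from GV to MII, in transcriptomes from morula to blastocyst, for polysomes against monosomes in morulae, for the difference from 2-cell to 8-cell and for trends in 2-cell embryos. Counts were 0 to 2 for trends in GV oocytes, polysomes against transcriptomes in GV oocytes and the difference from 8-cell to morula. They were 1 to 2 for polysomes against transcriptomes in MII oocytes, 2-cell and 8-cell embryos, polysomes from morula to blastocyst and free RNA in blastocysts. They were 1 in transcriptomes from MII to 2-cell and for polysomes against monosomes in blastocysts, and 0 for trends in MII oocytes and 8-cell embryos. Values that changed sign ranged, for ZP4, from -0.62 to 0.40 (polysomes against monosomes, MII), -0.48 to 0.12 (free RNA, MII), -0.78 to 0.048 (polysomes against monosomes, 2-cell), -5.00 to 1.04 (difference, 8-cell to morula), -2.43 to 3.58 (against transcriptomes, morula), and in rho from -0.69 to 0.19 (MII) and -0.86 to 0.17 (2-cell). For ZP2 they ranged from -0.013 to 0.51 (polysomes, GV to MII), -2.99 to 1.84 (difference, 8-cell to morula) and -2.63 to 2.18 (against transcriptomes, morula), for ZP3 from -0.52 to 0.10 (difference, morula to blastocyst) and for the ratio of ZP3 to ZP4 in morulae from -0.024 to 0.43. For trends, ratios and comparisons of pools within gradients, 1 whole gradient of a stage was left out in place of 1 library. ZP2 was below 10 counts in 15 of 20 blastocyst fractions and ZP4 in 18 of 20, which limits the precision of those profiles.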
